A study of Mus musculus with 9 samples.

Results

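The genes described here are 10 genes of the integrated stress response that are known as targets or carriers of the transcription factor ATF4: Atf4, Atf3, Atf5, Ddit3, Nupr1, Trib3, Sesn2, Eif4ebp1, Chac1 and Asns. They were taken by gene symbol from a table of 37583 genes in mouse liver RNA, each symbol matched 1 row, and all 10 were among the 20029 genes tested. Polyadenylated liver RNA of adult male C57Bl6 mice, 16 to 20 weeks old and fasted for 6 h, was sequenced in 3 groups of 3 libraries. The wild-type group was labelled Gcgr+/+ and was given PBS. The knockout-labelled group was labelled Gcgr-/-, that is, without the glucagon receptor gene, and was also given PBS. The antibody-labelled group was labelled Gcgr+/+ and was injected intraperitoneally each week over 10 days with 10 mg/kg of an antibody (humanized, monoclonal, from Amgen) that binds the glucagon receptor. The labels do not name the tissue in which Gcgr was deleted, and no batch is labelled. The series set both models side by side to ask what the liver does when glucagon cannot act on it, in view of the growth of pancreatic alpha cells that follows. Libraries of a group carry numbers, but the labels do not say outright that each came from a separate mouse, so the p-values measure the spread between these libraries.

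Gcgr itself went against the labels. Its normalized value, the deposited signal of a gene in a library, was 18521 ± 993 in wild type (SD, n = 3), 22717 ± 4093 in knockout-labelled libraries (SD, n = 3) and 2192 ± 351 in antibody-labelled libraries (SD, n = 3). The knockout-labelled libraries thus held 122.7% of the wild-type value and the antibody-labelled libraries 11.8%, so groups are named by their labels throughout. The files do not settle whether the labels of these groups were exchanged or whether the deletion leaves exons that were counted, and an exchange would change which model every value below describes. A library held an estimated 10.99 to 30.1 M reads assigned to genes, with the fewest in knockout-labelled library 1. The normalized values of that library also had the largest sum, 52.1 M, against 42.4 M to 47.4 M in the others. The part of this in the values below was not tested. Hepatocyte markers were abundant in all 9 libraries, with the albumin gene Alb between 665037 and 1272274. Of the 8 pancreatic acinar markers, 5 (Prss2, Cpa1, Amy2a5, Pnlip and Clps) were listed at the floor value of 1 in every library, while Cela1 lay between 298 and 518 and Cela2a between 1 and 18.5. None of 75 tested markers passed the limma test in any of the 3 comparisons described below. They covered 9 cell types: hepatocytes, Kupffer cells, lymphocytes, neutrophils, sinusoidal endothelium, stellate cells, cholangiocytes, acinar cells and erythroid cells. For the first 8 types in that order, the markers with the smallest p were Apob, Clec4f, Cd3d, Ly6g, Stab2, Col1a1, Spp1 and Cela2a in knockout-labelled against wild type (adjusted p from 0.0871 to 0.561 by limma). They were Tat, Clec4f, Nkg7, Retnlg, Stab2, Col3a1, Epcam and Cela1 in antibody-labelled against wild type (0.133 to 0.862), and Apoa1, Vsig4, Ms4a1, Retnlg, Cdh5, Lrat, Spp1 and Cela2a in antibody-labelled against knockout-labelled (0.254 to 0.489). With p unadjusted and under 0.05, 3 of the 75 were higher and 4 lower in the first (5.61% and 8.16% of all genes), 2 and 2 in the second (5.74% and 4.53%), and 5 and 1 in the last (7.78% and 5.53%). In whole liver tissue, fewer cells of a type and less RNA per cell cannot be told apart.

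The integrated stress response begins when a kinase such as GCN2 or PERK phosphorylates the translation initiation factor eIF2 in response to amino acid shortage, unfolded protein in the endoplasmic reticulum or other stress. Bulk protein synthesis slows while the mRNA of Atf4 is translated more, so that ATF4 activity is set largely by translation and protein stability rather than by its mRNA alone. ATF4, usually as a dimer with a C/EBP protein, then switches on genes for amino acid synthesis and transport, for other stress transcription factors, and for brakes on growth. In liver, glucagon drives amino acid uptake and breakdown, and amino acids accumulate in blood when its receptor is blocked.

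The composite site bound by C/EBP and ATF proteins has the core TGATGNAA, with N standing for any base. A RefSeq promoter window, from 250 bases before to 50 bases after the annotated start on build GRCm38.p6, was at hand for 9 of the 10 genes, Eif4ebp1 being the exception. Atf5 had 2 windows and the others 1 each. The core lay on either strand in a window of 5 of these 9 genes: Atf3, Nupr1, Chac1, Asns and Trib3. Windows of the same length held it in 4.51% of 27025 mouse genes. The variant TGATGCAA, which is contained in the same core, lay in the windows of Atf3, Nupr1 and Chac1 and in those of 1.03% of all genes. The stretches below are shown because they carry the TGATGNAA core. They run 5′ to 3′ along the gene's strand with 30 flanking bases on each side up to the start of transcription, or, for Trib3, as the motif alone. Capitals mark the core, which reads TTNCATCA where it lies on the strand opposite to the gene.
Atf3: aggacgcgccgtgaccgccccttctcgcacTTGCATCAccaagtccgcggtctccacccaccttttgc
Nupr1: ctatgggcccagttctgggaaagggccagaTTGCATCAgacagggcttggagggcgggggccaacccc
Chac1: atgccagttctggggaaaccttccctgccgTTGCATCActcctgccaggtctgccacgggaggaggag
Asns: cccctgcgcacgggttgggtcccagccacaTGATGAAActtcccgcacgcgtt
Trib3: TTACATCA
On GRCm38.p6 the Atf3 stretch is chr1:191183406-191183473 on the minus strand and the Nupr1 stretch is chr7:126625543-126625610 on the minus strand. The Chac1 stretch is chr2:119351019-119351086 on the plus strand, the Asns stretch chr6:7693210-7693262 on the minus strand, and the Trib3 motif chr2:152344039-152344046 on the minus strand. The core began 110 bases before the annotated start in both Atf3 and Nupr1. It began 193 bases before the start of Chac1, 23 bases before that of Asns and 15 bases after that of Trib3. A match is a description of the letters in this window and not a measured binding site, and the windows of Atf4, Atf5, Ddit3 and Sesn2 did not hold these letters.

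**Figure D1:**
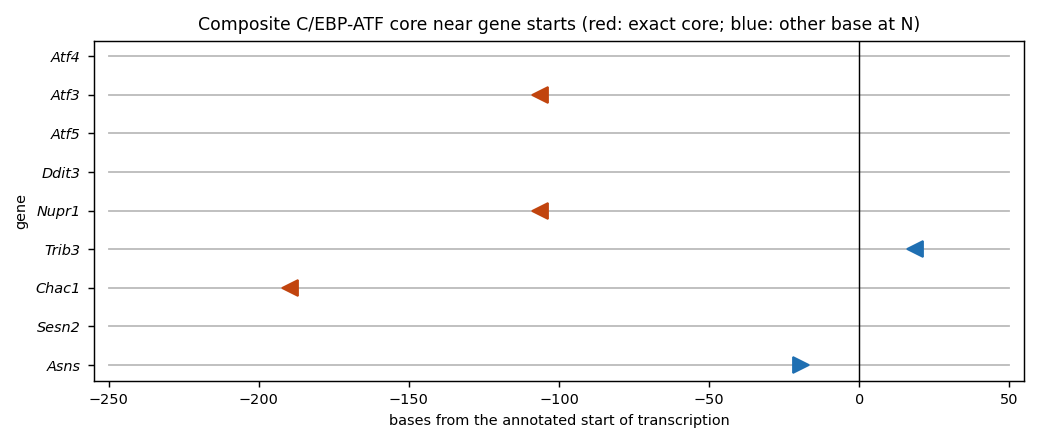
Position of the TGATGNAA core in the promoter windows of 9 stress response genes, in bases from the annotated start of transcription (0); triangles point along the strand of the motif, red for TGATGCAA and blue for another base at N. The red marks of Atf3 and Nupr1 sit at the same distance from the start, 110 bases before it, and 4 of the 9 genes hold none, Atf5, whose 2 windows share a line, among them.

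In knockout-labelled against wild type, most of the 10 genes lay above wild type, led by the stress transcription factor Atf3 and the glutathione-degrading enzyme Chac1, and asparagine synthetase (Asns) lay below. None of the 10 passed limma's test at a Benjamini-Hochberg adjusted p of 0.05 over all genes, against 0.155% of all genes tested. At an unadjusted p under 0.05, 5 genes were higher (Atf3, Trib3, Nupr1, Chac1 and Eif4ebp1) and 1 was lower (Asns), against 5.61% of all genes higher and 8.16% lower. In 6 of the 10 genes every knockout-labelled library exceeded every wild-type library (Atf4, Atf3, Nupr1, Trib3, Chac1 and Eif4ebp1), a pattern seen in 7.09% of all genes tested. For Nupr1 this rests on 37.85 in knockout-labelled library 2 against 37.82 in wild-type library 2. In no gene did every knockout-labelled library lie below wild type, against 9.35% of all genes. The log2 fold change, taken on log2(value + 1), was above 0 in 9 of the 10 genes, against 48.6% of all genes. Its median over the 10 genes was 0.51, beside -0.01 over all genes tested.

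In antibody-labelled against wild type, where Gcgr was low, 8 of the 10 genes had means above wild type but fewer were separated from it, and Atf5 and Asns lay below. Here too none of the 10 passed the adjusted threshold, against 1.34% of all genes. At an unadjusted p under 0.05, 5 genes were higher (Atf3, Trib3, Nupr1, Chac1 and Eif4ebp1) and 1 was lower (Atf5), against 5.74% of all genes higher and 4.53% lower. Every antibody-labelled library exceeded every wild-type library for Nupr1 and Eif4ebp1, that is for 2 of the 10 genes, against 9.65% of all genes. Every antibody-labelled library lay below wild type for 1 gene, Atf5, against 9.54% of all genes. The median log2 fold change of the 10 genes was 0.27, beside 0.00 over all genes, and 8 of the 10 values were above 0, against 50.3% of all genes. Both comparisons use the same 3 wild-type libraries, so a low or high wild-type value moves both of them together.

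**Figure D2:**
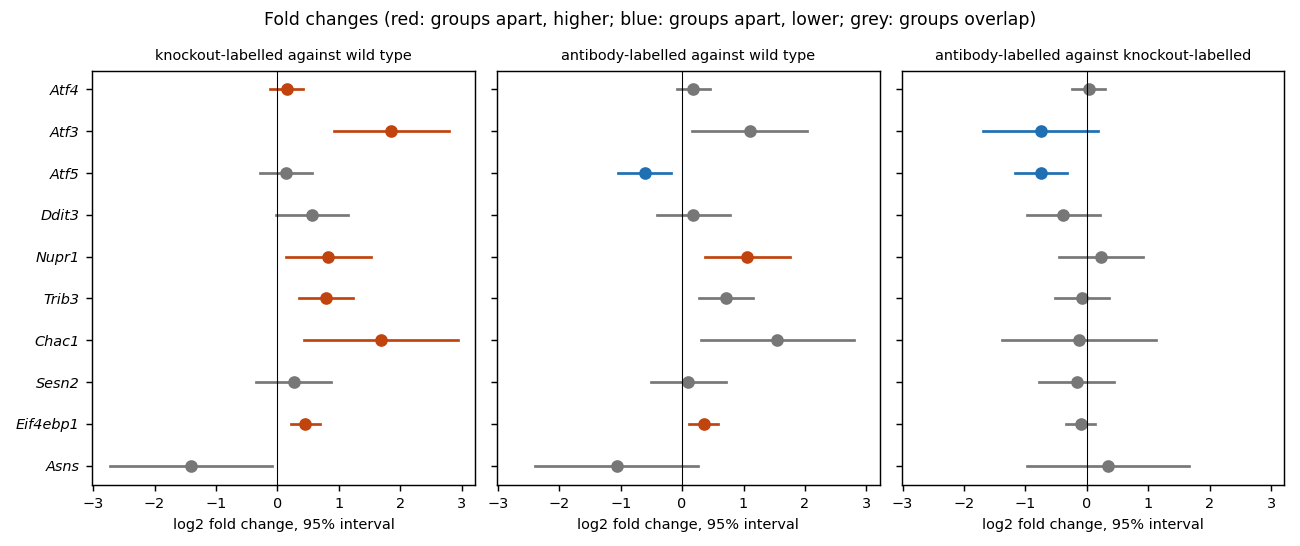
Log2 fold change (horizontal axis, on the log2(value + 1) scale) of the 10 stress response genes in the 3 comparisons, with the 95% interval of limma's fit; red marks genes whose 3 libraries all exceeded the other group, blue those that all lay below it, and grey those whose groups overlap. Red marks stand at 6 genes in knockout-labelled against wild type and at 2 in antibody-labelled against wild type, and the intervals of Chac1, Atf3 and Asns are the widest. Of the 6, Nupr1 is apart by a very narrow gap.

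The transcription factors are taken first. Atf4 (ENSMUSG00000042406, mm9 chromosome 15, 80085614 to 80087970, plus strand), the central factor of the response, had normalized values of 4902, 5255 and 4820.5 in wild-type libraries 1 to 3, of 5571, 5585 and 5443 in knockout-labelled libraries 1 to 3, and of 4639, 6032 and 6449 in antibody-labelled libraries 1 to 3. The 3 knockout-labelled values lay close together just above wild type, whereas antibody-labelled library 1 was the lowest of all 9 and library 3 the highest. Against wild type the log2 fold change was 0.15 in knockout-labelled libraries (SE 0.12, 95% interval -0.12 to 0.42, adjusted p = 0.631). It was 0.18 in antibody-labelled libraries (SE 0.12, 95% interval -0.09 to 0.45, adjusted p = 0.744). Both intervals lie within a log2 change of 1 in either direction, and ATF4 protein was not measured.

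Atf3 (ENSMUSG00000026628, mm9 chromosome 1, 192994175 to 193007219, minus strand), an inducible repressor and target of ATF4, stood at 153, 300.4 and 67.4 in wild-type libraries 1 to 3. It stood at 531, 518 and 539.5 in knockout-labelled libraries 1 to 3 and at 305, 289.6 and 350.3 in antibody-labelled libraries 1 to 3. The knockout-labelled values differed by no more than 1.04-fold and all exceeded the other 6 libraries, while the wild-type values spanned 4.46-fold and their highest, library 2, lay within the antibody-labelled range. The group means were 173 ± 118, 529 ± 11.01 and 315 ± 31.6 (SD, n = 3 each). The log2 fold change was 1.85 in knockout-labelled against wild type (SE 0.42, 95% interval 0.92 to 2.79, unadjusted p = 0.00141 and adjusted p = 0.105 by limma), the largest of the 10 genes. Antibody-labelled libraries stood at 1.10 from wild type (SE 0.42, 95% interval 0.16 to 2.04, adjusted p = 0.377). Single wild-type libraries moved these values in both directions. Without wild-type library 2 Atf3 passed in both comparisons, at 2.37 (adjusted p = 0.0177) and 1.62 (adjusted p = 0.0345), and without wild-type library 3 it stood at 1.30 and 0.55 and did not pass. Over all 19 alternative settings the adjusted p of Atf3 ran from 0.0177 to 0.375 in the first comparison and from 0.0345 to 1 in the second.

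Atf5 (ENSMUSG00000038539, mm9 chromosome 7, 52067627 to 52072028, minus strand), a close relative of ATF4 that is abundant in liver, had 38287, 40578 and 33809.9 in wild-type libraries 1 to 3, 40915, 50991 and 33718 in knockout-labelled libraries 1 to 3, and 26309.8, 18234 and 30980.2 in antibody-labelled libraries 1 to 3. The antibody-labelled libraries were the 3 lowest of the 9, and the other groups overlapped. In antibody-labelled against wild type the log2 fold change was -0.61 (SE 0.20, 95% interval -1.04 to -0.18, unadjusted p = 0.0096 and adjusted p = 0.237 by limma). It was 0.14 in knockout-labelled against wild type (SE 0.20, 95% interval -0.29 to 0.57, adjusted p = 0.796). The annotated span of Atf5, introns included, overlaps that of Nup62 by 571 bases and that of Il4i1 by 289 bases on the other strand. Whether the shared bases lie in exons was not examined. The labels name a kit with no mention of strand, so reads in the overlaps cannot be assigned with certainty. Nup62 had a mean value of 789 and Il4i1 of 113, beside 34869 for Atf5.

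Ddit3 (ENSMUSG00000025408, mm9 chromosome 10, 126727830 to 126733344, plus strand), which encodes the pro-apoptotic factor CHOP, stood at 209, 289 and 434 in wild-type libraries 1 to 3, at 496, 370.2 and 462 in knockout-labelled libraries 1 to 3, and at 246, 448 and 347 in antibody-labelled libraries 1 to 3. All 3 groups overlapped, with wild-type library 3 above knockout-labelled library 2. Knockout-labelled libraries lay at a log2 fold change of 0.56 from wild type (SE 0.27, 95% interval -0.03 to 1.16, adjusted p = 0.387). It was 0.18 in antibody-labelled against wild type (SE 0.27, 95% interval -0.41 to 0.77, adjusted p = 0.917). The annotated span of Ddit3 shares 68 bases with that of Mars, a methionyl-tRNA synthetase gene on the other strand. Mars had a mean value of 4057, and some of the Ddit3 reads may belong to it if exons overlap, which was not examined.

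Nupr1 (ENSMUSG00000030717, mm9 chromosome 7, 133766763 to 133770524, minus strand), a small stress-induced chromatin protein, was low in all 9 libraries. It had 26.1, 37.8 and 20.97 in wild-type libraries 1 to 3, 56.8, 37.9 and 57.0 in knockout-labelled libraries 1 to 3, and 44.8, 63.9 and 70.1 in antibody-labelled libraries 1 to 3. Both groups lay above wild type, the knockout-labelled group by the narrow gap between its library 2 and wild-type library 2. The log2 fold changes were 0.83 (SE 0.31, 95% interval 0.15 to 1.52, adjusted p = 0.266) and 1.06 (SE 0.31, 95% interval 0.38 to 1.75, adjusted p = 0.172) in knockout-labelled and antibody-labelled against wild type. These values rest on an estimated 9.95 to 40.0 reads a library.

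**Figure D3:**
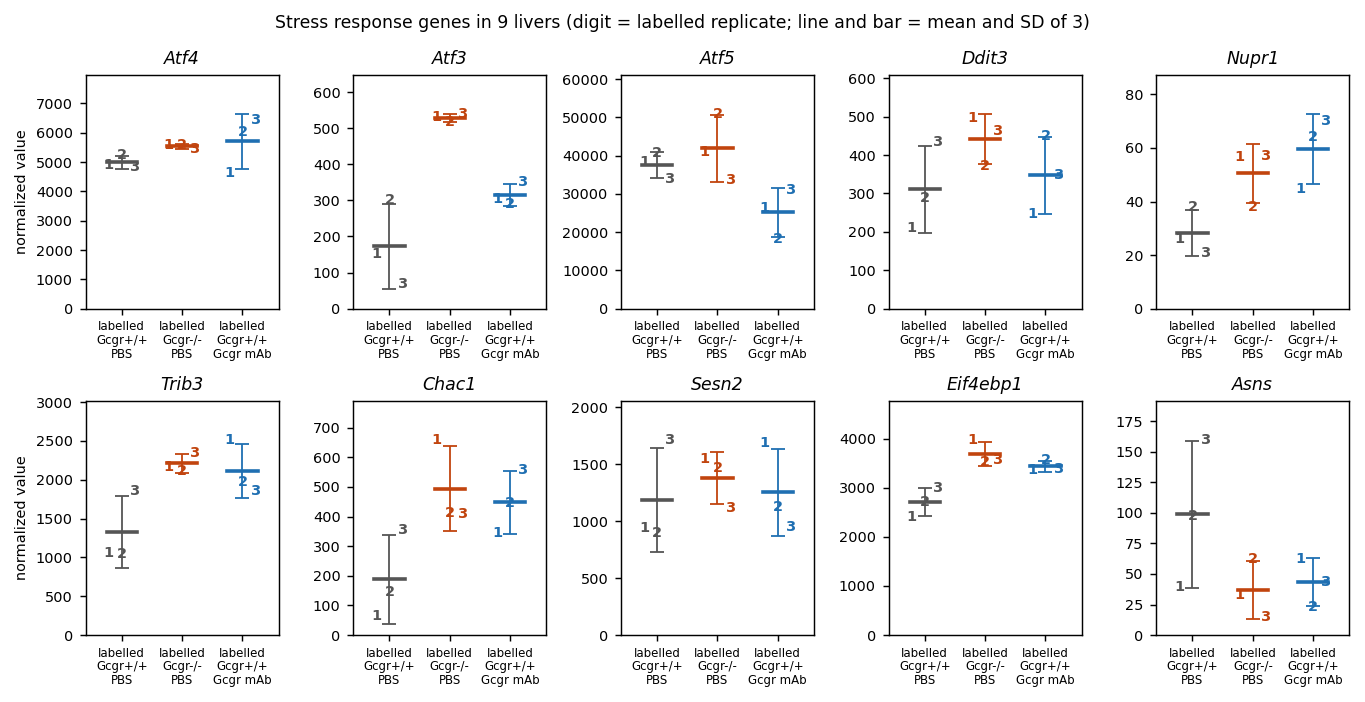
Normalized value (vertical axes, starting at 0) of each of the 10 stress response genes in the 9 libraries by labelled group; digits give the labelled replicate number, and lines and bars the mean and SD of 3. Atf3 shows 3 knockout-labelled values close together at 518 to 539.5 above a wide wild-type spread, while Sesn2 and Ddit3 show groups that overlap.

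The regulators of growth signalling come next. Trib3 (ENSMUSG00000032715, mm9 chromosome 2, 152163158 to 152169768, minus strand), a pseudokinase that restrains both AKT and ATF4, had 1059, 1049 and 1859.8 in wild-type libraries 1 to 3. It had 2169, 2119 and 2341 in knockout-labelled libraries 1 to 3 and 2514, 1969.9 and 1857 in antibody-labelled libraries 1 to 3. Wild-type library 3 stood apart from the other wild-type libraries and reached the lowest antibody-labelled value, whereas every knockout-labelled value exceeded it. Knockout-labelled against wild type, Trib3 had a log2 fold change of 0.79 (SE 0.20, 95% interval 0.36 to 1.23, unadjusted p = 0.00201 and adjusted p = 0.120 by limma). Antibody-labelled libraries stood at 0.72 (SE 0.20, 95% interval 0.28 to 1.16, adjusted p = 0.140). Without wild-type library 3, Trib3 passed in both comparisons, at 1.07 (adjusted p = 0.0193) and 0.99 (adjusted p = 0.00970), and with library weights it passed in the second (0.83, adjusted p = 0.0297). Without wild-type library 2 it stood at 0.65 and 0.58. The adjusted p ran from 0.0193 to 0.381 in the first comparison and from 0.00970 to 0.457 in the second over the 19 alternatives.

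Eif4ebp1 (ENSMUSG00000031490, mm9 chromosome 8, 28370799 to 28386128, plus strand), the translation brake 4E-BP1 that mTORC1 switches off, lay above wild type in both labelled groups. Its values were 2413, 2698 and 2983 in wild-type libraries 1 to 3, 3973, 3524 and 3569 in knockout-labelled libraries 1 to 3, and 3366, 3559 and 3375 in antibody-labelled libraries 1 to 3. All 6 libraries of the labelled groups exceeded all 3 wild-type libraries. For Eif4ebp1 the log2 fold change was 0.45 in knockout-labelled against wild type (SE 0.11, 95% interval 0.22 to 0.69, unadjusted p = 0.00115 and adjusted p = 0.0978 by limma), which is the smallest adjusted p among the 10 genes there. In antibody-labelled against wild type it was 0.35 (SE 0.11, 95% interval 0.12 to 0.59, adjusted p = 0.190), and 0.38 with library weights, where it passed (adjusted p = 0.0356, in a range of 0.0356 to 0.569 over the alternatives).

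Sesn2 (ENSMUSG00000028893, mm9 chromosome 4, 132047947 to 132066416, minus strand), a leucine sensor that restrains mTORC1, showed no separation of groups. It had 939, 899.8 and 1714 in wild-type libraries 1 to 3, 1545, 1467 and 1115 in knockout-labelled libraries 1 to 3, and 1684, 1126 and 948 in antibody-labelled libraries 1 to 3. Wild-type library 3 was the highest of all 9 and wild-type library 2 the lowest. The log2 fold changes were 0.27 (SE 0.27, 95% interval -0.34 to 0.88, adjusted p = 0.709) and 0.10 (SE 0.27, 95% interval -0.50 to 0.71, adjusted p = 0.961). Sesn2 encloses a second gene model on the same strand, Gm12981, whose mean value was 2.24.

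The enzymes of glutathione and amino acid metabolism had mean changes from wild type of opposite sign. Chac1 (ENSMUSG00000027313, mm9 chromosome 2, 119176965 to 119180117, plus strand), which cleaves glutathione, stood at 63.8, 146 and 355 in wild-type libraries 1 to 3, at 659, 413 and 410.0 in knockout-labelled libraries 1 to 3, and at 343, 444 and 556 in antibody-labelled libraries 1 to 3. The wild-type values spanned 5.56-fold, the widest wild-type spread of the 10 genes, and their highest lay above the lowest antibody-labelled value. The log2 fold change was 1.68 in knockout-labelled against wild type (SE 0.54, 95% interval 0.43 to 2.93, unadjusted p = 0.0143 and adjusted p = 0.231 by limma) and 1.55 in antibody-labelled against wild type (SE 0.54, 95% interval 0.30 to 2.80, adjusted p = 0.341). Without wild-type library 3, Chac1 passed in both comparisons, at 2.31 (adjusted p = 0.0345) and 2.17 (adjusted p = 0.0159), and without wild-type library 1 it stood at 1.08 and 0.95 and did not pass. Over the alternatives its adjusted p ran from 0.0345 to 0.704 and from 0.0159 to 1.

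Asns (ENSMUSG00000029752, mm9 chromosome 6, 7625169 to 7643254, minus strand), which makes asparagine from aspartate and glutamine and is a textbook ATF4 target, was low. Its mean changes were opposite in sign to those of Chac1, with groups that overlapped. Its values were 39.2, 97.6 and 159.9 in wild-type libraries 1 to 3, 33.2, 62.2 and 14.7 in knockout-labelled libraries 1 to 3, and 62.6, 23.3 and 43.7 in antibody-labelled libraries 1 to 3. Wild-type libraries 2 and 3 were the highest of all 9, but wild-type library 1 lay inside both other groups. The log2 fold change was -1.41 in knockout-labelled against wild type (SE 0.60, 95% interval -2.73 to -0.09, adjusted p = 0.329) and -1.07 in antibody-labelled against wild type (SE 0.60, 95% interval -2.39 to 0.25, adjusted p = 0.636). Leaving out 1 library moved them between -1.96 and -0.89 and between -1.62 and -0.62. These values rest on an estimated 6.95 to 75.9 reads a library. Asns and Chac1 both hold the TGATGNAA core in the promoter stretches shown above.

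In antibody-labelled against knockout-labelled, none of the 10 genes passed the adjusted threshold, against 0.28% of all genes. Atf3 and Atf5, that is 2 of the 10, lay lower in every antibody-labelled library than in every knockout-labelled library, against 7.38% of all genes. No gene lay higher in every library, against 9.82%. The log2 fold change was -0.75 for Atf3 (SE 0.42, 95% interval -1.69 to 0.19, adjusted p = 0.474) and -0.75 for Atf5 (SE 0.20, 95% interval -1.18 to -0.32, unadjusted p = 0.0026 and adjusted p = 0.143 by limma). At an unadjusted p under 0.05 Atf5 alone was lower, against 5.53% of all genes, and 0 of the 10 were higher, against 7.78%. In 3 of the 10 the log2 fold change was above 0, against 53.5% of all genes. The other 8 genes lay between -0.38 (Ddit3) and 0.34 (Asns), and the median of the 10 was -0.12, beside 0.02 over all genes. The intervals of the difference remained wide for Chac1 (-1.38 to 1.12) and Asns (-0.98 to 1.67) and were narrower for Atf4 (-0.24 to 0.30) and Eif4ebp1 (-0.33 to 0.13).

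Seen library by library, the 10 genes did not form 1 block. Relative to each gene's mean over the 9 libraries, the median over the 10 genes was -0.56, -0.22 and 0.03 on the log2 scale in wild-type libraries 1 to 3. The medians were 0.31, 0.24 and 0.26 in knockout-labelled libraries 1 to 3 and 0.06, 0.13 and 0.05 in antibody-labelled libraries 1 to 3. These library medians were farther apart in wild type than in the other groups. Single genes did not all do the same: the coefficient of variation of Atf5 was 9.17% in wild type, 20.7% in knockout-labelled and 25.6% in antibody-labelled libraries, and that of Atf4 was 4.63% for wild type against 16.6% under the antibody label. Wild-type library 3 held the highest wild-type value of 6 genes (Ddit3, Trib3, Asns, Chac1, Sesn2 and Eif4ebp1) and the lowest wild-type value of the other 4 (Atf3, Atf4, Atf5 and Nupr1). Leaving it out moved the median log2 fold change of the 10 genes from 0.51 to 0.61 in knockout-labelled against wild type and from 0.27 to 0.44 in antibody-labelled against wild type, and leaving out wild-type library 1 moved it to 0.34 and 0.22. Knockout-labelled library 1 held the highest value of all 9 libraries for Ddit3, Chac1 and Eif4ebp1. Without knockout-labelled library 1, 2 or 3, the median in knockout-labelled against wild type was 0.44, 0.59 and 0.50.

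**Figure D4:**
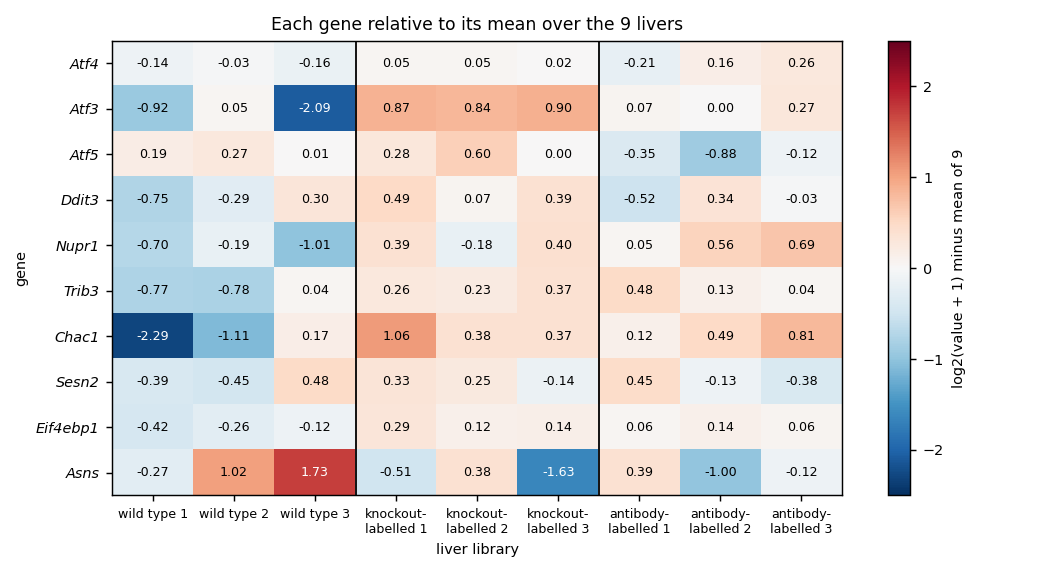
Heat map of the 10 stress response genes (rows) in the 9 libraries (columns), coloured and numbered by log2(value + 1) minus the gene's mean over the 9 libraries. Wild-type library 3 holds both the lowest value of Atf3 (-2.09) and the highest value of Asns (1.73), and the knockout-labelled columns are above 0 in most rows.

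The genes also differed widely in level. Per kilobase of exon, with exon lengths from GENCODE M21, the mean normalized value over 9 libraries ran in the order Atf5 (17496), Atf4 (2295), Eif4ebp1 (1491), Trib3 (886), Sesn2 (366), Chac1 (230.1), Ddit3 (214), Atf3 (157), Asns (21.8) and Nupr1 (18.4). These lengths join the exons of all annotated transcripts of a gene, so levels may be understated by different amounts. The first 5 genes of this level order kept it in each of the 9 libraries, although the ranges of Eif4ebp1 and Trib3 overlapped. Below these 5 genes the order of neighbours varied and their ranges overlapped as well. Sesn2 exceeded Chac1 in 8 of 9 libraries, Chac1 exceeded Ddit3 in 5, Ddit3 exceeded Atf3 in 8, Atf3 exceeded Asns in 8 and Asns exceeded Nupr1 in 5. Atf5 and Atf4 stood above the rest in level, and the genes with the largest fold changes, Atf3 and Chac1, were of middling level.

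Other genes of the pathway were read from lists chosen by function. Upstream, none of 17 genes for eIF2 kinases, their regulators, eIF2 phosphatase subunits and the eIF2 and eIF2B complexes passed the test in any comparison. Their median log2 fold change was 0.04 for the knockout label and 0.00 for the antibody label, each against wild type, and -0.01 for the antibody label against the knockout label. The medians over all genes were -0.01, 0.00 and 0.02, and the comparisons keep this order below. Of the 17 genes, 3 were higher and 2 were lower in the first when p was left unadjusted (under 0.05), against 5.61% and 8.16% of all genes. In the second 1 was higher and 0 were lower, against 5.74% and 4.53%, and in the last 1 was higher and 2 were lower, against 7.78% and 5.53%; these shares apply to the lists below as well. The gene with the smallest p was Ppp1r15b, the constitutive phosphatase subunit CReP, at -0.44 in the first comparison (adjusted p = 0.149), Impact, an inhibitor of GCN2 activation, at 0.62 in the second (adjusted p = 0.142), and Eif2b4, an eIF2B subunit, at -0.52 in the third (adjusted p = 0.155). None of 13 dimer partners and other regulators of ATF4 passed either, with the AP-1 factor Jun at 1.00 (adjusted p = 0.104), the antioxidant regulator Nfe2l2 at 0.44 (adjusted p = 0.266) and Trib1 at 0.27 (adjusted p = 0.293) leading the 3 comparisons in that order. Without adjustment (p under 0.05), 1 of these 13 was higher and 1 lower for the knockout label against wild type, 3 were higher for the antibody label against wild type, and 2 were higher for the antibody label against the knockout label. Without wild-type library 2, Jun passed at 1.28 (adjusted p = 0.0448, in a range of 0.0448 to 0.462 over the alternatives).

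Among 22 ATF4-responsive genes of amino acid synthesis, one-carbon metabolism and transport, 0 passed in knockout-labelled libraries against wild type. In the antibody-labelled libraries 3 passed against wild type, of which 1 was higher and 2 were lower, against 1.34% of all genes past the threshold in either direction. With p unadjusted and under 0.05, 1 was higher and 5 were lower in the former (5.61% and 8.16% of all genes), and 3 were higher and 4 were lower in the latter (5.74% and 4.53%). The gene with the smallest p in the former was Cth at -0.86 (adjusted p = 0.120). Cth stood at 25555, 13124 and 24789 in knockout-labelled libraries 1 to 3. Each of these lay below every wild-type value (33055 to 41685), although the test was not passed. The median of the 22 was -0.04 and -0.06 in these comparisons. Cth, which releases cysteine in transsulfuration, fell by 1.70 on the log2 scale (SE 0.22, adjusted p = 0.00390), from 33055 to 41685 in wild-type libraries to 10512 to 11906 in antibody-labelled libraries, with no overlap. Cbs, the enzyme before it, fell by 0.97 on the log2 scale (SE 0.17, adjusted p = 0.0162). Its values were 33134, 35088 and 25140 in wild-type libraries 1 to 3. They were 26392, 18742 and 20903 in knockout-labelled libraries 1 to 3, which overlapped wild type. In antibody-labelled against wild type the direction was the same in all 19 alternatives for both Cth and Cbs. The call of Cbs held in 13 of 19 alternatives. It was lost with no filter on low values (adjusted p = 0.0554), without trend and robust estimation (adjusted p = 0.107), without wild-type library 1 (adjusted p = 0.0801) or 2 (adjusted p = 0.0900) and without antibody-labelled library 1 (adjusted p = 0.0711) or 2 (adjusted p = 0.0784), in a range of 0.00155 to 0.107. The call of Cth was lost where no filter on low values was set (adjusted p = 0.0814, in a range of 0.000114 to 0.0814). Both enzymes lie on the path that breaks down methionine as well as making cysteine.

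Psat1, which makes phosphoserine for serine synthesis, rose in the antibody-labelled libraries, by 2.22 on the log2 scale against wild type (SE 0.47, adjusted p = 0.0423). It stood at 17.4, 19.5 and 25.3 in wild-type libraries 1 to 3, at 28.2, 58.4 and 16.6 in knockout-labelled libraries 1 to 3, and at 137, 52.7 and 134 in antibody-labelled libraries 1 to 3. All antibody-labelled values exceeded wild type, but library 2 lay within the knockout-labelled range. The wild-type values of Psat1 were about as low as those of Nupr1 and likewise rest on few reads. The call held in 9 of 19 alternatives, and the adjusted p ran from 0.0140 to 0.164. It was lost without wild-type library 1 (adjusted p = 0.150), 2 (adjusted p = 0.147) or 3 (adjusted p = 0.0772), without knockout-labelled library 1 (adjusted p = 0.0692), and without antibody-labelled library 1 (adjusted p = 0.162) or 3 (adjusted p = 0.164). The call was also lost with a pseudocount of 10 (adjusted p = 0.0525), with quantile normalization (adjusted p = 0.0539), without trend and robust estimation (adjusted p = 0.136) and with the replicate number as a block (adjusted p = 0.0814).

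Of 19 other ATF4-responsive genes tested, among them Gdf15, Fgf21, Vldlr and Ppp1r15a, 0 passed in knockout-labelled libraries against wild type and 1 passed in the antibody-labelled ones. The list median was 0.30 and 0.12 in these comparisons, and 4 and 3 of its genes were higher, against 5.61% and 5.74% of all genes, and 0 lower, against 8.16% and 4.53%, where p was unadjusted and under 0.05. The gene with the smallest p in the first was Gdf15, a secreted stress protein, at 1.44 (SE 0.37, adjusted p = 0.157), and without wild-type library 2 it passed at 1.90 (adjusted p = 0.00808, in a range of 0.00808 to 0.505), as Atf3 did. In the second, Soat2, a cholesterol-esterifying enzyme, rose by 0.63 on the log2 scale (SE 0.13, adjusted p = 0.0388). Its knockout-labelled values (3183 to 4077) also all exceeded its wild-type values (2304 to 2975), without passing the test. The antibody-labelled call of Soat2 was kept in 12 of 19 alternatives. That call was lost without any 1 of wild-type libraries 1 and 2, knockout-labelled library 3 and antibody-labelled libraries 1, 2 and 3, with adjusted p-values from 0.0509 to 0.178, and without trend and robust estimation (adjusted p = 0.159). In antibody-labelled against knockout-labelled neither this list nor the amino acid list had a gene past the threshold; unadjusted, 1 gene was higher and 2 were lower in this list, and 3 were higher and 3 lower in the amino acid list, against 7.78% and 5.53% of all genes. In the amino acid list Cth came nearest at -0.84 (adjusted p = 0.137), and without knockout-labelled library 2 it passed at -1.16 (adjusted p = 0.00664, in a range of 0.00664 to 0.590). In the other list it was Sqstm1, the autophagy receptor p62, at -0.44 (adjusted p = 0.256).

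The lists nearest to the unfolded protein and translation branches held no gene past the threshold. None of 21 cytosolic tRNA synthetases and Xpot passed in any comparison, with medians of 0.14, -0.04 and -0.15. The smallest p belonged to Farsb, a subunit of phenylalanyl-tRNA synthetase, at 0.31 (adjusted p = 0.301) in the first comparison and -0.36 (adjusted p = 0.253) in the last, and to Eprs, the glutamyl-prolyl enzyme, at -0.28 (adjusted p = 0.338) in the second. None of 23 endoplasmic reticulum chaperones and genes of the other unfolded protein arms passed, with medians of -0.06, -0.09 and 0.05. Sdf2l1, a cofactor of chaperones in the endoplasmic reticulum, led at -0.79 (adjusted p = 0.149) and 0.62 (adjusted p = 0.262) in the first and last, and the oxidase gene Ero1lb at 0.42 (adjusted p = 0.206) in the second. None of 14 heat shock genes passed, with medians of -0.14, -0.23 and -0.08. The constitutive chaperone gene Hspa8 led at -0.25 (adjusted p = 0.337) and -0.41 (adjusted p = 0.127) in the comparisons with wild type, the latter past the threshold with library weights (-0.41, adjusted p = 0.0298, in a range of 0.0298 to 0.436). In the last it was Clpp, a mitochondrial protease subunit, at -0.26 (adjusted p = 0.362). Regulators and sensors of mTORC1, the complex restrained by the product of Sesn2, had 0 of 23 past the threshold, with medians of 0.02, 0.01 and 0.09. Deptor, an inhibitor of mTOR, stood at -0.39 (adjusted p = 0.186) in the first, Gatsl2 at 0.50 (adjusted p = 0.217) in the second, and Tsc1, which restrains mTORC1, at 0.42 (adjusted p = 0.169) in the last. Relatives of the 10 genes, such as Atf1, Atf7, Sesn1 and Eif4ebp2, had 0 of 15 past the threshold, with medians of -0.09, 0.05 and 0.13. Each of these 5 lists held at most 4 genes in 1 direction with an unadjusted p under 0.05 in any comparison, where 4.53% to 8.16% of all genes did, and the mTORC1 list held 4 higher and 3 lower in antibody-labelled against knockout-labelled. The leading gene of the relatives, Atf7, stood at -0.71 in knockout-labelled against wild type (adjusted p = 0.0935) and at 0.73 in antibody-labelled against knockout-labelled (adjusted p = 0.0879). In antibody-labelled against wild type it was Sesn1, a relative of Sesn2, at 0.58 (adjusted p = 0.391), which passed without wild-type library 3 at 0.91 (adjusted p = 0.0122, in a range of 0.0122 to 0.873).

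Immediate early genes, Jun among them, which are induced within minutes by many stimuli, are given because Atf3 is itself one of this kind. In knockout-labelled against wild type 1 of 20 was past the threshold and higher, against 0.155% of all genes past it in either direction. Of the 20, 18 lay above 0, against 48.6% of all genes, with a median of 0.57, and with p unadjusted and under 0.05, 9 were higher and 1 was lower, against 5.61% and 8.16%. Fosb rose from 4.36, 9.03 and 8.43 in wild-type libraries 1 to 3 to 111, 95.6 and 57.8 in knockout-labelled libraries 1 to 3, a log2 fold change of 3.43 (SE 0.47, adjusted p = 0.0284). These wild-type values of Fosb lie below all wild-type values of Nupr1 and Asns and amount to few reads. The size of the change is therefore uncertain. The call was kept in 15 of 19 alternatives and lost without wild-type library 1 (adjusted p = 0.116), without the knockout-labelled library 1 (adjusted p = 0.0962), with library weights (adjusted p = 0.0513) and without trend and robust estimation (adjusted p = 0.144), in a range of 0.00131 to 0.144. Antibody-labelled values of Fosb were 22.5, 74.4 and 24.5, with a log2 fold change of 2.16 against wild type (adjusted p = 0.0503). It passed there in 7 of 19 alternatives, among them library weights, a filter on a mean of at least 10, both rescalings and the replicate block, in a range of 0.0171 to 0.186. In that comparison 0 of 20 of the list passed, 13 of 20 lay above 0, against 50.3% of all genes, and the median was 0.26. With p unadjusted and under 0.05, 5 were higher and 1 was lower there, against 5.74% and 4.53% of all genes. In antibody-labelled against knockout-labelled 0 of 20 passed, 5 of 20 lay above 0, against 53.5% of all genes, and the median was -0.41. There 0 were higher and 4 lower with p unadjusted and under 0.05, against 7.78% and 5.53%, and Dusp1, a MAP kinase phosphatase, had the smallest p at -0.47 (adjusted p = 0.155). The summed level of the 20 genes ran from 37770.1 to 56062 in wild type, from 56780 to 93878 in knockout-labelled and from 50241 to 56731 in antibody-labelled libraries. These sums were higher in the knockout-labelled group, as Atf3 was, and their part in the Atf3 values was not tested.

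**Figure D5:**
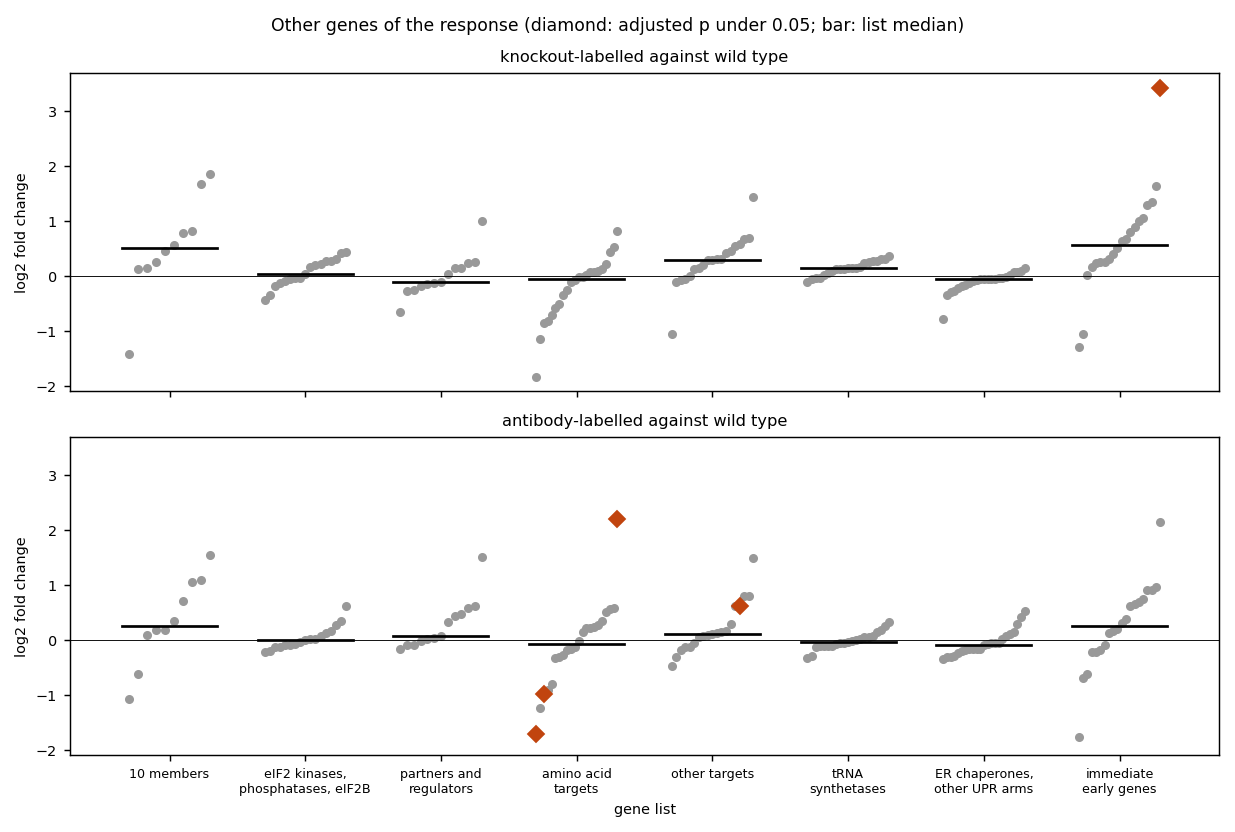
Log2 fold change (vertical axis) of every tested gene of the 10 stress response genes and of 7 related lists, in knockout-labelled against wild type (top) and antibody-labelled against wild type (bottom); bars give list medians and red diamonds genes with an adjusted p under 0.05. Diamonds are seen at Fosb in the top panel and at Cth, Cbs, Psat1 and Soat2 in the bottom panel, and at none of the 10 genes.

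For 3 of the 10 genes the tested genes of at least median level with the most similar log2 values over the 9 libraries were looked up, as a description of these libraries, which share group structure and scaling. The nearest to Atf4 were Zfp865 (Pearson r = 0.89), Zfp628 (0.89) and Crtc3 (0.88). The nearest to Atf3 were Nme1 (0.93), Ccdc56 (0.93) and Ier3ip1 (0.93), and the nearest to Trib3 were Wipi1 (0.94), Cdc23 (0.93) and Stard5 (0.93). None of the other 9 genes of the set was eligible for this search.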

How the data were processed

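Liver RNA of 9 libraries was compared in 3 groups of 3. Per the submitters' processing notes, FastQC, TopHat2 2.0 and SAMtools were used with the mouse build mm9, while how reads were counted and scaled is not given in the sources used here. Each deposited value is a signal of 1 gene in 1 library, normalized by the authors in a way that its header does not state, with a floor of 1. The commonest value above the floor, taken as the worth of 1 read, lay between 1.50 and 4.74. Only 40.8% to 45.8% of values under 10 reads were then whole within 0.01 read, so tests on counts were not run. The number of libraries and their depth limit precision, and no counting interval is given.

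Values were analysed as log2(value + 1), so folds of low genes are understated. Genes above the floor in at least 3 of 9 libraries were tested, and 17554 were not. A linear model with 1 mean per group was fitted to all 9 libraries in limma 3.58.1 under R 4.3.3, with trend and robust estimation. Tests were two-sided, p-values were adjusted by Benjamini-Hochberg over every gene tested in a comparison, and the threshold was 0.05. The smallest p an exact permutation of 3 libraries against 3 can give is 0.1, so none was run. Of 273 listed symbols, 272 were matched and 263 tested. Of the table's gene IDs, 32860 are in GENCODE M21. Promoter sequences are RefSeq's, on GRCm38.p6, and gene coordinates are the table's, in mm9.

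The 10 genes, the lists and the alternatives were chosen with earlier results of these data known. All 10 were named whatever their p. Gcgr was named as the check of the labels. Of each other list, up to 4 genes past the threshold were named per comparison, or else the gene with the smallest p, except for 1 marker list whose genes are not reported here. Alternatives were other pseudocounts, filters, scalings, spread estimates, fits of the 6 libraries compared, a block for the replicate number, and the omission of each library.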

Additional observations from a re-analysis of the deposited data

Results flagged for a closer look

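The effect on Gcgr differed between the labelled models by the test of the difference itself. In antibody-labelled against knockout-labelled libraries the log2 fold change of Gcgr was -3.37 (SE 0.15, adjusted p = 8.37e-07 by limma), and each antibody-labelled library (1808 to 2496) lay below each knockout-labelled library (19656 to 27365). The antibody-labelled change against wild type was -3.09 and the knockout-labelled change 0.28. None of the 10 stress response genes met a criterion for this section: no difference between the labelled groups passed the test, and groups of 3 were not examined for single libraries far from the others.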

How the results depend on the processing

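Of 570 log2 fold changes of the 10 genes under the 19 alternatives, 549 kept their direction and their side of the threshold. The 8 that newly passed are given with Atf3, Trib3, Chac1 and Eif4ebp1 above. The 13 that changed sign all came from leaving out 1 library, and the cause was not tested. In knockout-labelled against wild type, Atf5 ran from -0.012 (without knockout-labelled library 2) to 0.29 when 1 library was left out. In antibody-labelled against wild type, Ddit3 ran from -0.071 (without wild-type library 1, and -0.023 without antibody-labelled library 2) to 0.45. Sesn2 there ran from -0.13 (without antibody-labelled library 1, with -0.031 and -0.062 without wild-type libraries 1 and 2) to 0.40. In antibody-labelled against knockout-labelled, Chac1 ran from -0.30 to 0.095 (without knockout-labelled library 1, and 0.046 without antibody-labelled library 1), and Asns from -0.18 (without knockout-labelled library 3) to 0.83. Atf4 ran from -0.065 (without antibody-labelled library 3, and -0.017 without library 2 of that label) to 0.17. Without antibody-labelled library 3, Trib3 reached 0.011 in a range from -0.21, and Sesn2 0.015 in a range from -0.40.

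The number of the 10 genes past the threshold stayed at 0, except for 2 with library weights in antibody-labelled against wild type and 0 to 2 when single libraries were left out in either comparison with wild type. Counts over all genes were less steady. In knockout-labelled against wild type 31 genes passed, beside 65 without a filter, 0 without trend and robust estimation (2402 at an unadjusted p under 0.05), 15 with the 6 libraries alone, and 4 (without wild-type library 1) to 145 (without knockout-labelled library 2) when 1 library was left out. The share of higher calls was 38.7%, and 73.3% with the 6 libraries alone. In antibody-labelled against wild type 268 passed, beside 71 without trend and robust estimation, 666 with library weights, and 105 (without antibody-labelled library 2) to 290 (without knockout-labelled library 3). In antibody-labelled against knockout-labelled 56 passed, beside 23 with a pseudocount of 10, 1 without trend and robust estimation, 19 with library weights, 16 with the 6 libraries alone, and 1 (without antibody-labelled library 2) to 82 (without knockout-labelled library 2). Rescaling by the upper quartile or quantile normalization moved the median of all genes by less than 0.1 on the log2 scale. Nupr1 and Asns rest on the fewest estimated reads of the 10 genes, with as few as 9.95 and 6.95 in a library, and the part of depth in their spread was not tested.

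With the replicate number as a block, 38, 251 and 45 genes passed in the 3 comparisons and none of the 10 genes did. The share of higher calls in the third went from 67.9% to 48.9%, and Psat1 lost its call (adjusted p = 0.0814). Libraries of the same number deviated together with correlations of -0.14 to 0.13, and not every library correlated best with its own number, so the numbers were not taken as pairs. The exceptions all involved knockout-labelled libraries. Each wild-type library did correlate best with the antibody-labelled library of its number, weakly, at 0.13, 0.015 and 0.099 for numbers 1 to 3.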
